A study of Mus musculus with 9 samples.

Results

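The genes described here are 36 genes of DNA replication and S phase, chosen by name from the machinery that licenses origins, unwinds and copies DNA, supplies nucleotides, packs new chromatin and repairs it. They were followed in the mouse fibroblast line NIH 3T3, among 19935 genes measured on Affymetrix arrays. All 36 had at least 1 probe set with a single gene symbol, and where a gene had several the brightest over all arrays was used. The 3 groups were stable lines with a Net shRNA, stable lines with a Sap-1 shRNA and control lines with the empty lentiviral vector pLKO.1, each with 3 biological replicates on 1 array each. Elk3 encodes Net and Elk4 encodes Sap-1, 2 members of the ternary complex factor family that join serum response factor on DNA through an ETS domain. Cells of all 3 groups had attached to fibronectin for 2 hours, were starved of serum overnight and were then given bovine serum, 1 hour ahead of lysis, at 10% in the sample protocols and 20% in the series text. The number of independent lines behind each group is not given in the sources used here, and cells without serum were not analysed here.

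Replication is licensed in G1, when Cdc6 and Cdt1 load rings of the 6 MCM subunits onto origin DNA. In S phase Mcm10, Cdc45 and the GINS complex turn these rings into active helicases, and primase, the polymerases, the clamp PCNA and its loader RFC build the fork. Many genes of this machinery are transcribed together by E2F factors once the retinoblastoma protein is phosphorylated, and in fibroblasts leaving quiescence their messages come hours after the immediate early response to serum.

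Levels are log2 values after RMA, a method of background correction, quantile normalization and probe summary, so a difference of 1 is a doubling. Array medians ran from 7.47 to 7.54, and arrays of a group correlated at 0.9981 to 0.9992. The targeted messages were lower in their own lines, Elk3 by a fold of 0.75 in Net shRNA cells and Elk4 by a fold of 0.34 in Sap-1 shRNA cells, but each was also called lower in the other line, Elk4 at 0.74 of control in Net and Elk3 at 0.92 of control in Sap-1 shRNA cells. Fibroblast markers were bright in every group, at 10.95 to 14.04, while no macrophage, epithelial, endothelial, skeletal muscle or adipocyte marker averaged over 9.21. Of the 10 fibroblast markers 3 fell in Net and 4 in Sap-1 shRNA cells, Pdgfra to a fold of 0.83 and 0.30. Over all genes 13.4% rose and 10.2% fell in Net, and 15.8% rose and 13.9% fell in Sap-1 shRNA cells. Of the 34 markers of other cell types 8 rose and 1 fell in Net and 6 rose and 3 fell in Sap-1 shRNA cells. Among them were the endothelial receptor Tek, at 8.58 in Net shRNA, 6.44 in Sap-1 shRNA and 6.74 in control cells, and the macrophage gene Lyz2, at 6.84, 7.85 and 6.04 in the same groups. Most other markers of these types did not follow them. Of 8 macrophage markers 6 were not called against control for either shRNA, and Cd68 rose with the Net shRNA (0.23) but fell with the other (-0.23). Of 7 endothelial markers 5 were not called with the Net shRNA, where Emcn rose by 0.27. With the Sap-1 shRNA Cdh5 and Emcn rose (0.84 and 0.89) while Tek fell (-0.30), and 4 were not called. The part of these shifts in the results was not tested. A gene was called where limma's adjusted p over all genes was under 0.05. In lysates of whole cultures, more cells in S phase and more of a message per cell cannot be told apart.

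Most replication genes were more abundant in both knockdown lines than in control. In Net shRNA cells 24 of 36 rose, 1 fell and 11 were not called, with a median difference of 0.33. In Sap-1 shRNA cells 28 rose, 0 fell by limma (0 also at an unadjusted p under 0.05 and under every other setting run) and 8 were not called, with a median of 0.30. Of all genes 13.4% rose and 10.2% fell in Net shRNA cells, and 15.8% rose and 13.9% fell in Sap-1 shRNA cells. The replication genes were bright, with 33 of 36 at or above the median level, and among all genes that bright 23% rose and 17.7% fell in Net shRNA cells, and 26.9% rose and 22.3% fell in Sap-1 shRNA cells. The median difference over all genes was within 0.02 of 0 in both comparisons. Both comparisons use the same control arrays, so their 21 genes called higher in each are a side-by-side count. The share of all genes called higher in both lines is not given here, so this count has no baseline.

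The differences were small, and in the median over the genes they were even across arrays. The median level over the 36 genes was 9.79, 9.85 and 9.84 in the Net shRNA arrays, 9.88, 9.87 and 9.89 in the Sap-1 shRNA arrays, and 9.56, 9.58 and 9.55 in the control arrays. By this median each knockdown array thus lay above each control array. Single genes were less even, as for Pola1, at 9.06 in Net shRNA replicate 1 and 9.38 and 9.42 in replicates 2 and 3. Without Net shRNA replicate 1 the genes called higher in Net shRNA cells numbered 27, against 24 with all arrays. Called changes reached 1.5-fold or more for 3 genes in Net shRNA cells (Cdt1, Cdc6 and Fen1) and for 4 in Sap-1 shRNA cells (Mcm3, Cdc6, Cdt1 and Mcm7). Arrays did not overlap and were higher than control for 26 genes in Net shRNA cells, where 18.5% of all genes did the same, and for 31 in Sap-1 shRNA cells, where 20.8% of all genes did. They did not overlap and were lower than control for 1 gene in Net shRNA cells (15.8% of all genes) and for 0 in Sap-1 shRNA cells (20.2% of all genes). The SD within a group had a median of 0.06 over the 36 genes and did not exceed 0.19.

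**Figure D1:**
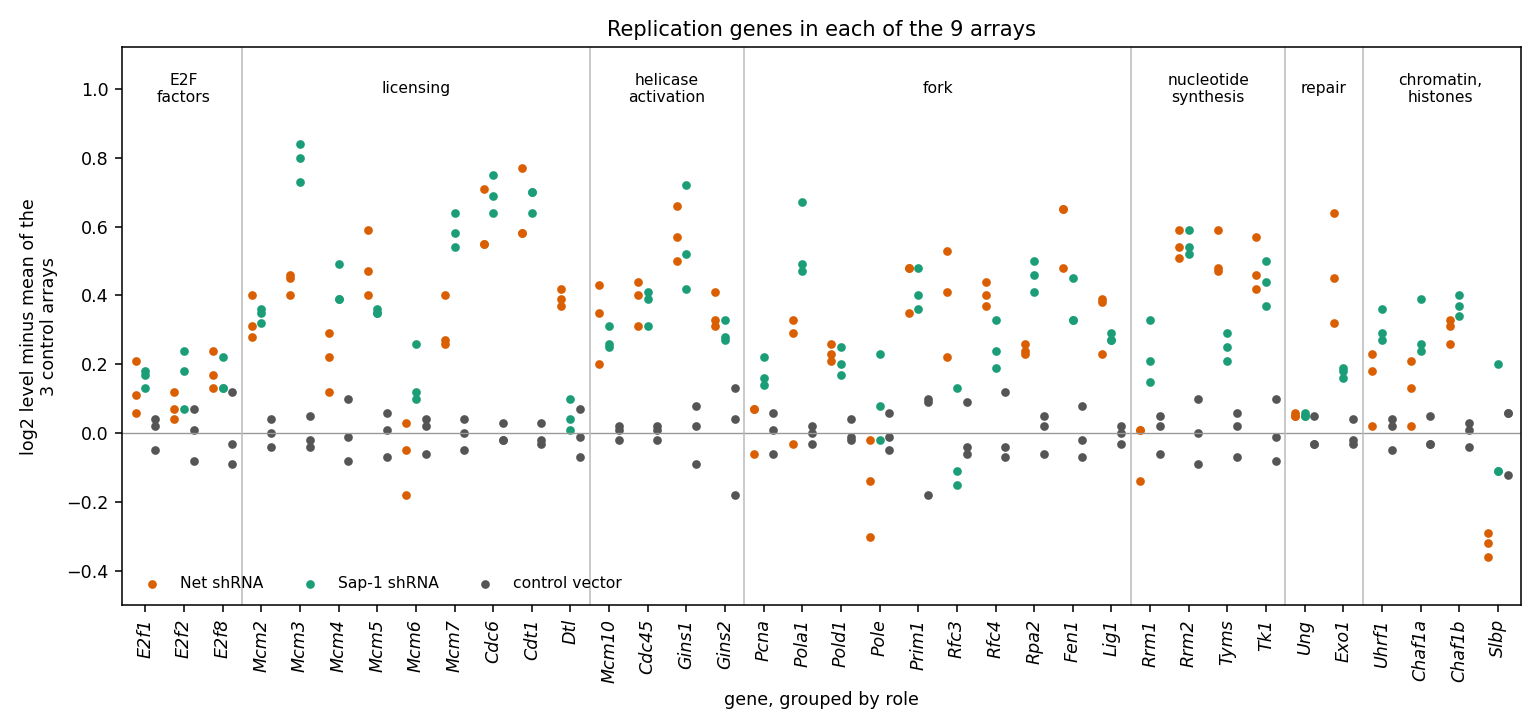
Level of each of the 36 replication genes in each array (log2 scale, vertical axis) minus the mean of its 3 control arrays, for Net shRNA (orange), Sap-1 shRNA (green) and control (grey), 1 point per array. Most orange and green points lie above the grey ones, with Pole and Ung close to control. In Net shRNA cells Mcm6, Pcna and Rrm1 also lie close to control and Slbp lies below it.

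The promoters of several of these genes carry words that match the E2F consensus, and stretches of 6 are shown because they come from genes called higher in both lines, in 1 line or in neither. RefSeq promoter windows (GRCm38.p6, 250 bases before to 50 after a gene's first base) were found for 31 of the 36 genes and searched on both strands for TTTCCCGC, TTTCGCGC, TTTGCCGC and TTTGGCGC. Each stretch is 120 bases, 5′ to 3′ on the gene's strand, with the E2F words in capitals. Words on opposite strands can overlap, as in Mcm5 and Mcm6, and were then both counted. Mcm5 (chr8:75109329-75109448, + strand) and Cdc6 (chr11:98907971-98908090, + strand) rose in both lines, and these stretches end 60 bases before the gene. Dtl (chr1:191575545-191575664, - strand) and Rfc3 (chr5:151651209-151651328, - strand) rose in Net shRNA cells and were not called in Sap-1 shRNA cells, Pola1 (chrX:93632216-93632335, - strand, ending 60 bases before the gene) was called higher in Sap-1 and not in Net shRNA cells, and Mcm6 (chr1:128359706-128359825, - strand) was not called in either line.
Mcm5: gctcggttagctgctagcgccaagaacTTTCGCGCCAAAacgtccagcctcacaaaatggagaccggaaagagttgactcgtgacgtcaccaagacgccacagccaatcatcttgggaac
Cdc6: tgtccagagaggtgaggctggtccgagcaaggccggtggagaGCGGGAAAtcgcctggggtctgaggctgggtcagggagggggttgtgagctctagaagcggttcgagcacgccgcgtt
Dtl: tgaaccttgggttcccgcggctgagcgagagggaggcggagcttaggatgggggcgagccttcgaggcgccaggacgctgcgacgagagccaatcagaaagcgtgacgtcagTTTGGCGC
Rfc3: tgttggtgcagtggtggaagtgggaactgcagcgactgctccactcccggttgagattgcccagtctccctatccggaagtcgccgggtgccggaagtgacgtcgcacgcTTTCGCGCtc
Pola1: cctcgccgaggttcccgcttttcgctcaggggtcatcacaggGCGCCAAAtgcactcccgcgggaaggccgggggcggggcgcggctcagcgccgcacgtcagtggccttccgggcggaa
Mcm6: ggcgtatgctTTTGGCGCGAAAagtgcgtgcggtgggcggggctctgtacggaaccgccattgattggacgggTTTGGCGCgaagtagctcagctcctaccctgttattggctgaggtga

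An E2F word lay in a window of 13 of the 31 genes (41.9%), against 3.48% of the 15612 genes tested that had a window. Besides the 6 above with such a word, these were E2f2, Mcm3, Mcm7, Cdt1, Pold1, Lig1 and Uhrf1. Among the 13 genes with a word 9 rose in Net and 10 in Sap-1 shRNA cells, and among the 18 without one 11 and 15 rose. Over all tested genes with a window, 24.7% and 28.7% rose with a word and 13.4% and 15.7% without one. Members with and without a word were thus both mostly called higher. The word CCGGAAG, a core recognised by many ETS factors, lay in windows of 8 of the 31 (25.8%), namely Mcm10, Pola1, Prim1, Rfc3, Rfc4, Rpa2, Tyms and Chaf1b, against 13.6% of genes tested. Of these 8 genes 7 rose in Net and 7 in Sap-1 shRNA cells, and of the 23 without the word 13 and 18 rose. CCAAT was in windows of 20 of the 31 (64.5%), against 41.7%. A match is a run of letters and not a measured site.

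The E2F factors themselves differed little, with 0 of 3 called in Net shRNA cells by limma (2 at an unadjusted p under 0.05) and 2 of 3 higher in Sap-1 shRNA cells. The shares of all genes called higher were 13.4% in Net and 15.8% in Sap-1 shRNA cells. E2f1, an activator of S phase genes, read 10.21, 10.36 and 10.26 in Net shRNA arrays, 10.33, 10.32 and 10.28 in Sap-1 shRNA arrays and 10.10, 10.19 and 10.17 in control arrays. It was called higher in Sap-1 shRNA cells (difference 0.15, SE 0.05, limma adjusted p = 0.029) and not in Net shRNA cells (0.12, adjusted p = 0.087). The activator E2f2 was dimmer, at 7.69 ± 0.04 in Net shRNA, 7.78 ± 0.08 in Sap-1 shRNA and 7.62 ± 0.07 in control cells (SD, n = 3 arrays each), and was called in Sap-1 shRNA cells alone at adjusted p = 0.043. Neither call held in every fit that left out an array: E2f1 lost its call in 4 of the 9 fits that left out an array (adjusted p = 0.055 to 0.1; Sap-1 shRNA replicates 1 and 2, control replicates 1 and 3) and E2f2 in 6 (adjusted p = 0.056 to 0.16; Net shRNA replicates 2 and 3, Sap-1 shRNA replicates 1 and 2, control replicates 1 and 2). The E2f2 call was also lost with the robust variance fit (adjusted p = 0.054), with only the 6 arrays compared (0.069) and with the neighbours' median subtracted (0.12, adjusted p = 0.14), while E2f1 passed in Net shRNA cells without Net shRNA replicate 1 (adjusted p = 0.045) or with dim probe sets left out (0.047). E2f8, an atypical repressor of E2F targets, read 0.18 and 0.16 above control in Net and Sap-1 shRNA cells without passing (limma adjusted p = 0.051 and 0.064), and passed in both without control replicate 2 (adjusted p = 0.011 and 0.012) and with dim probe sets left out (0.025 and 0.033). It also passed in Net shRNA cells with the robust variance fit (0.041) or, just under the threshold, cyclic loess, and in Sap-1 shRNA cells with centred arrays (0.029).

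Licensing genes held the largest single rise in each line, Cdt1 in Net and Mcm3 in Sap-1 shRNA cells. Of 9 measured, 8 rose in Net shRNA cells and 7 in Sap-1 shRNA cells, with medians of 0.40 and 0.42. Shares over all genes were 13.4% and 15.8%, and 23% and 26.9% over genes at or above the median level. Cdt1, which loads MCM rings with Cdc6, read 10.42, 10.61 and 10.42 in Net shRNA arrays and 10.54, 10.54 and 10.48 in Sap-1 shRNA arrays, against 9.82, 9.87 and 9.81 in control arrays. Its level was 1.57-fold control in Net shRNA cells (log2 0.65, SE 0.05, limma adjusted p = 9.3e-06) and 1.61-fold in Sap-1 shRNA cells (0.69, SE 0.05, adjusted p = 3.2e-06). Cdc6, the ATPase that recruits Cdt1 and MCM to the origin, read 8.29, 8.45 and 8.29 in Net shRNA arrays and 8.38, 8.43 and 8.49 in Sap-1 shRNA arrays, against 7.72, 7.77 and 7.72 in control arrays. For both loaders every knockdown array lay above every control array, and the arrays of the 2 knockdowns overlapped. Cdc6 was 1.52-fold and 1.62-fold control in Net and Sap-1 shRNA cells (limma adjusted p = 1.3e-05 and 2.3e-06).

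Dtl, the substrate receptor of the ubiquitin ligase that destroys Cdt1 in S phase, read 10.25, 10.22 and 10.20 in Net shRNA arrays, 9.87, 9.84 and 9.93 in Sap-1 shRNA arrays and 9.82, 9.90 and 9.76 in control arrays. The Net shRNA arrays stood apart from all others, while Sap-1 shRNA and control overlapped. Dtl rose by 0.40 in Net shRNA cells (SE 0.05, limma adjusted p = 0.0001) and lay at 0.05 in Sap-1 shRNA cells (95% interval -0.05 to 0.15). The 50 nearest expressed genes along chromosome 1 had a median change of -0.30 in Sap-1 shRNA cells, and with that median taken off Dtl was 0.35 above control there (adjusted p = 0.00022).

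Of the 6 subunits of the MCM ring, 5 rose in both lines and Mcm6 passed in neither. Mcm2 read 10.84, 10.93 and 10.81 in Net shRNA arrays and 10.89, 10.88 and 10.85 in Sap-1 shRNA arrays, against 10.49, 10.57 and 10.53 in control arrays, a rise of 0.33 and 0.34 (SE 0.04 each). Mcm5 rose by 0.49 in Net and 0.35 in Sap-1 shRNA cells, with 11.22, 11.41 and 11.29 in Net shRNA arrays, 11.18, 11.17 and 11.17 in Sap-1 shRNA arrays and 10.83, 10.88 and 10.75 in control arrays. Between the lines neither was called, with 95% intervals of -0.11 to 0.08 for Mcm2 and 0.01 to 0.25 for Mcm5, whose arrays did not overlap and which passed without Net shRNA replicate 1 (0.18, limma adjusted p = 0.034). With the neighbours' median subtracted Mcm2 was called lower in Net shRNA cells (-0.14, adjusted p = 0.019). Mcm3 showed the largest rise of all 36 genes in Sap-1 shRNA cells, 1.73-fold (0.79, SE 0.05, limma adjusted p = 2.3e-07), and 1.35-fold in Net shRNA cells (0.44, SE 0.05, adjusted p = 4.5e-05). Its arrays read 9.79, 9.84 and 9.85 in Net shRNA arrays, 10.19, 10.12 and 10.23 in Sap-1 shRNA arrays and 9.35, 9.44 and 9.37 in control cells. Mcm7 had the same order, 10.74, 10.87 and 10.73 in Net shRNA arrays, 11.05, 11.11 and 11.01 in Sap-1 shRNA arrays and 10.47, 10.51 and 10.42 in control arrays, with rises of 0.31 and 0.59. For both subunits the 3 groups were fully separated.

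Mcm4 rose by 0.21 ± 0.06 (SE) in Net shRNA cells (limma adjusted p = 0.025) and by 0.42 ± 0.06 in Sap-1 shRNA cells (adjusted p = 0.00023). The call in Net shRNA cells was lost in 4 of the 9 fits without an array (adjusted p = 0.072 to 0.1; Net shRNA replicates 2 and 3, control replicates 1 and 3) and with only the 6 arrays compared (adjusted p = 0.051). Mcm6 read 9.94, 10.15 and 10.07 in Net shRNA arrays, 10.24, 10.22 and 10.38 in Sap-1 shRNA arrays and 10.16, 10.14 and 10.06 in control arrays. It was called in neither comparison with control (Net -0.07, adjusted p = 0.54, 95% interval -0.21 to 0.07; Sap-1 0.17, adjusted p = 0.072). In Sap-1 shRNA cells it passed with Net shRNA replicate 1 left out (adjusted p = 0.04), with arrays centred on their median (adjusted p = 0.046), with dim probe sets left out (adjusted p = 0.038) and with the neighbours' median subtracted (0.27, adjusted p = 0.0064), where its value in Net shRNA cells turned to 0.08 (adjusted p = 0.39). Its promoter stretch above holds 3 E2F words.

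**Figure D2:**
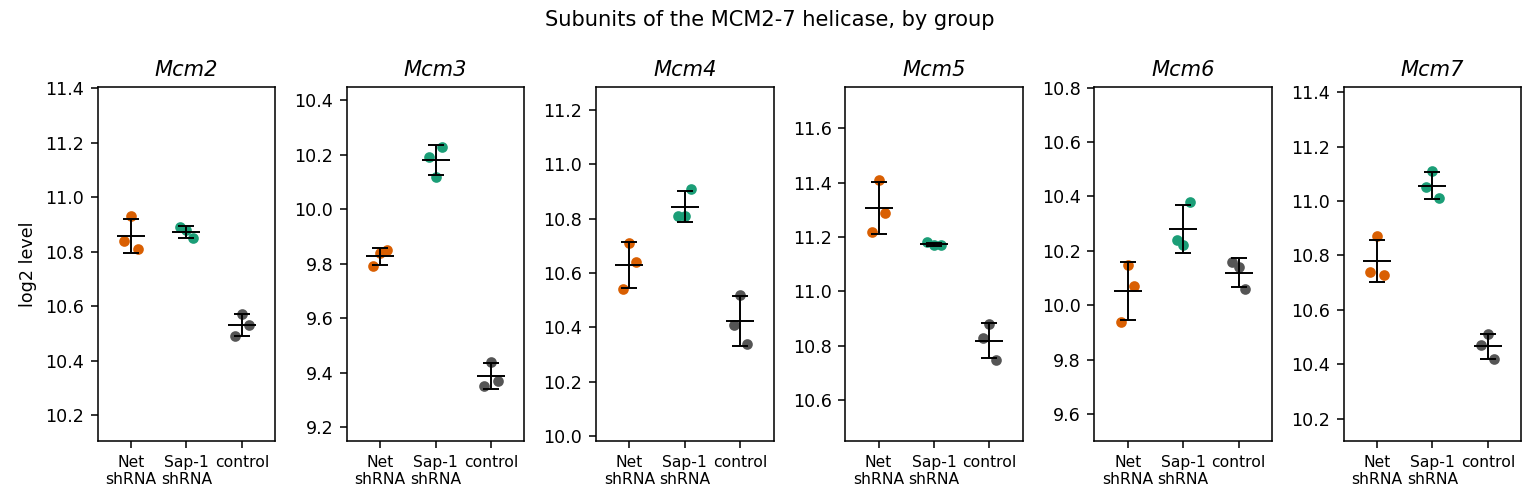
Log2 level of the 6 MCM subunit genes in Net shRNA (orange), Sap-1 shRNA (green) and control (grey) arrays, 1 point per array, with the mean and SD of 3 arrays; each panel spans the same range of log2 units around its own mean. Mcm2 and Mcm5 stand above control in both knockdowns, Mcm3 and Mcm7 are lower in Net shRNA than in Sap-1 shRNA cells, and Mcm6 stays near control in Net shRNA cells.

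Genes of helicase activation rose in both lines, 4 of 4 in each, and 0 of 4 were called between the lines by limma (0 at an unadjusted p under 0.05). Gins1, a GINS subunit, read 7.43, 7.59 and 7.50 in Net shRNA arrays and 7.65, 7.35 and 7.45 in Sap-1 shRNA arrays, against 7.01, 6.84 and 6.95 in control arrays. It was 1.49-fold and 1.47-fold control (limma adjusted p = 0.00025 and 0.0002), and was the dimmest of the 36 genes. Cdc45, the subunit that joins MCM and GINS in the active helicase, rose by 0.38 in Net and 0.37 in Sap-1 shRNA cells (SE 0.05 each). Mcm10, needed to activate the assembled helicase, rose by 0.33 and 0.27, and Gins2 by 0.35 and 0.30. The 95% intervals of the difference between the lines were -0.09 to 0.11 for Cdc45, -0.07 to 0.18 for Mcm10, -0.15 to 0.19 for Gins1 and -0.09 to 0.21 for Gins2.

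At the fork, 7 of 10 genes rose in Net shRNA cells and 8 of 10 in Sap-1 shRNA cells, with medians of 0.29 and 0.26. For all genes these shares were 13.4% and 15.8%. Fen1, the nuclease that trims the flaps of Okazaki fragments, rose most in Net shRNA cells, with 8.55, 8.72 and 8.72 in Net shRNA arrays, 8.40, 8.52 and 8.40 in Sap-1 shRNA arrays and 8.004, 8.15 and 8.05 in control arrays, without overlap between groups. That was 1.51-fold control in Net shRNA (limma adjusted p = 4e-05) and 1.29-fold in Sap-1 shRNA cells (adjusted p = 0.00062). Lig1, the ligase that joins the fragments, rose by 0.33 and 0.28, and Prim1, the primase subunit that makes the primers, by 0.43 and 0.41. Pold1, the catalytic subunit of the lagging strand polymerase, rose by 0.23 and 0.20. Each of these 4 genes was called higher in both lines, while Pola1 and Pcna, which also serve the lagging strand, were not called in Net shRNA cells.

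Pola1, the catalytic subunit of the polymerase that extends primers, read 9.06, 9.38 and 9.42 in Net shRNA arrays, 9.56, 9.58 and 9.76 in Sap-1 shRNA arrays and 9.09, 9.11 and 9.06 in control arrays. It rose by 0.55 ± 0.09 (SE) in Sap-1 shRNA cells (limma adjusted p = 0.00058) and was not called in Net shRNA cells, where the arrays overlapped control (0.20, adjusted p = 0.14) until replicate 1 was left out (0.31, adjusted p = 0.0057). Rfc3, a subunit of the clamp loader, read 9.37, 9.68 and 9.56 in Net shRNA arrays, 9.04, 9.0001 and 9.28 in Sap-1 shRNA arrays and 9.09, 9.24 and 9.11 in control arrays. It rose by 0.39 in Net shRNA cells (SE 0.09, adjusted p = 0.0079) and lay at -0.04 in Sap-1 shRNA cells (95% interval -0.24 to 0.16). Its partner subunit Rfc4 rose in both lines, by 0.40 in Net and 0.25 in Sap-1 shRNA cells, and lay at 0.10 in Sap-1 shRNA cells once the change of its 50 neighbours was subtracted (adjusted p = 0.19).

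Other fork genes filled out the range. Rpa2, a subunit of the complex that coats single-stranded DNA, rose by 0.25 in Net and 0.45 in Sap-1 shRNA cells (limma adjusted p = 0.0015 and 1.1e-05). Pcna, the sliding clamp and the brightest of the 36 genes, lay at 0.02 in Net shRNA cells (95% interval -0.09 to 0.13) and rose by 0.17 in Sap-1 shRNA cells (adjusted p = 0.029). That call was lost in 4 of the 9 fits without an array (adjusted p = 0.06 to 0.11; Sap-1 shRNA replicates 2 and 3, control replicates 1 and 3). Pole, the catalytic subunit of the leading strand polymerase, was called in neither line (Net -0.15, adjusted p = 0.21; Sap-1 0.10, adjusted p = 0.41). With the neighbours' median subtracted its value in Net shRNA cells turned to 0.04 (adjusted p = 0.77), while Sap-1 shRNA cells passed at 0.24 (adjusted p = 0.034). A second Pcna probe set read 12.45 in Net shRNA arrays, 12.61 in Sap-1 shRNA arrays and 12.43 in control cells, and close copies of this gene may share its signal.

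Among genes of nucleotide supply, 3 of 4 rose in Net shRNA cells and 4 of 4 in Sap-1 shRNA cells, where 13.4% and 15.8% of all genes did. Ribonucleotide reductase makes deoxynucleotides from a large subunit, Rrm1, and a small subunit made in S phase, Rrm2. Rrm2 read 10.71, 10.79 and 10.74 in Net shRNA arrays and 10.72, 10.74 and 10.79 in Sap-1 shRNA arrays, against 10.20, 10.30 and 10.11 in control arrays, 1.46-fold control in each line (limma adjusted p = 2.3e-05 and 1.2e-05). Rrm1 read 11.42, 11.57 and 11.57 in Net shRNA arrays, 11.71, 11.77 and 11.89 in Sap-1 shRNA arrays and 11.58, 11.61 and 11.50 in control arrays. It lay at -0.04 in Net shRNA cells (95% interval -0.17 to 0.09) and rose by 0.23 in Sap-1 shRNA cells (adjusted p = 0.012). That call was lost without control replicate 3 (0.20, adjusted p = 0.054) and once the neighbours' change was subtracted (0.16, adjusted p = 0.055). In Net shRNA cells the small subunit gene thus rose and the large one did not pass, a difference between genes that was not tested.

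Tyms, which makes thymidylate, read 10.12, 10.01 and 10.00 in Net shRNA arrays, 9.74, 9.82 and 9.78 in Sap-1 shRNA arrays and 9.46, 9.59 and 9.55 in control arrays. The groups were fully separated, at 1.42-fold and 1.19-fold control (limma adjusted p = 2.6e-05 and 0.0023). Tk1, the salvage kinase for thymidine, rose by 0.48 and 0.43 (SE 0.06 each), and its second probe set averaged 10.11 in Net shRNA arrays, 10.04 in Sap-1 shRNA arrays and 9.74 in control cells.

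Of 2 repair genes 1 rose in Net and 0 in Sap-1 shRNA cells by limma (1 at an unadjusted p under 0.05 in Sap-1 shRNA cells), and of 4 chromatin and histone supply genes 1 rose and 1 fell in Net and 3 rose in Sap-1 shRNA cells. As a share of all genes, 13.4% rose and 10.2% fell in Net, and 15.8% rose and 13.9% fell in Sap-1 shRNA cells. Exo1, an exonuclease of mismatch repair and end resection, read 8.78, 9.10 and 8.91 in Net shRNA arrays, 8.62, 8.65 and 8.64 in Sap-1 shRNA arrays and 8.43, 8.50 and 8.44 in control arrays. It rose by 0.47 in Net shRNA cells (SE 0.07, limma adjusted p = 0.00048) and did not pass in Sap-1 shRNA cells (0.18, adjusted p = 0.076), though no arrays overlapped and the call was gained without Net shRNA replicate 1 or 2 (adjusted p = 0.013 to 0.024) and with only the 6 arrays compared (0.0069), centred arrays (0.042) or dim probe sets left out (0.039). Its 50 neighbours had a median of -0.31 in Sap-1 shRNA cells, and with it taken off Exo1 was 0.49 above control (adjusted p = 0.00015). Ung, the uracil glycosylase that clears misincorporated uracil, lay at 0.06 in each line (adjusted p = 0.36 and 0.32). It was dim, at 7.82 in Net shRNA, 7.81 in Sap-1 shRNA and 7.76 in control cells, where the median over all genes was 7.81. It passed in each line with the neighbours' median (-0.12 in Net and -0.11 in Sap-1 shRNA cells) taken off (0.18 and 0.16).

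The chromatin assembly factor loads new histones behind the fork, and its subunit gene Chaf1b rose by 0.30 in Net and 0.37 in Sap-1 shRNA cells (SE 0.04 each). The larger subunit Chaf1a read 8.80, 8.99 and 8.91 in Net shRNA arrays, 9.04, 9.02 and 9.17 in Sap-1 shRNA arrays and 8.75, 8.83 and 8.75 in control arrays, and was called in Sap-1 shRNA cells (0.30, limma adjusted p = 0.0024) but not in Net shRNA cells (0.12, adjusted p = 0.18). Uhrf1, which brings the maintenance methyltransferase to new DNA, had the same pattern, with 0.14 in Net shRNA (adjusted p = 0.11, but 0.013 without Net shRNA replicate 1) and a rise of 0.30 in Sap-1 shRNA cells (adjusted p = 0.0021). Slbp, which binds the stem-loop of replication-dependent histone messages, was the 1 gene that fell. It read 9.64, 9.68 and 9.71 in Net shRNA arrays, 9.89, 9.89 and 10.20 in Sap-1 shRNA arrays and 10.06, 10.06 and 9.88 in control arrays. Its fold of 0.80 in Net shRNA cells passed (-0.32, SE 0.08, adjusted p = 0.014), and was lost without control replicate 1 or 2 (adjusted p = 0.06 and 0.056) and once the neighbours' median was subtracted (-0.21, adjusted p = 0.1). Another Slbp probe set averaged 9.16 in Net shRNA arrays, 9.39 in Sap-1 shRNA arrays and 9.34 in control cells.

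The direct comparison of the knockdowns asked which replication genes differ between the 2 lines. In Net shRNA cells 5 of 36 were higher than in Sap-1 shRNA cells, where 14.2% of all genes and 23.2% of those at or above the median level were, and 10 were lower, where 13.3% of all genes and 22.9% of those at or above the median level were. The members' shares were 13.9% higher and 27.8% lower. The share of higher genes was near that of all genes and under that of genes at or above the median level. The share of lower genes was above that of all genes and nearer to that of genes at or above the median level. Arrays did not overlap for 7 genes higher (19.6% of all genes) and 12 lower (17.8% of all genes). Higher in Net shRNA cells were Rfc3 (0.43, SE 0.09), Dtl (0.35, SE 0.05), Exo1 (0.29, SE 0.07), Tyms (0.26, SE 0.05) and Fen1 (0.22, SE 0.06), with limma adjusted p = 0.00017 to 0.017. Lower were Mcm3 and Pola1 (-0.35 each), Slbp (-0.32), Mcm7 and Rrm1 (-0.27 each), Pole (-0.25), Mcm6 (-0.23), Mcm4 and Rpa2 (-0.21 each) and Chaf1a (-0.18), with adjusted p = 0.00013 to 0.045. By role, 4 of 9 licensing genes, all of them MCM subunits, were lower in Net shRNA cells and 1, Dtl, was higher.

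Several of these differences moved with the neighbourhood of the gene or with single arrays. Mcm3 had neighbours with a median of -0.30 between the lines and lay at -0.06 with it taken off (limma adjusted p = 0.38). Dtl was at 0.02 (adjusted p = 0.78), Exo1 at -0.07 (adjusted p = 0.45), Tyms at 0.12 (adjusted p = 0.11), Fen1 at 0.13 (adjusted p = 0.13), Mcm4 at -0.13 (adjusted p = 0.11), Pole at -0.20 (adjusted p = 0.073) and Chaf1a at -0.16 (adjusted p = 0.072) in that setting. The same setting gained calls for Rfc4 (0.26, adjusted p = 0.006), Pcna (-0.20, adjusted p = 0.013), Mcm2 (-0.14, adjusted p = 0.019) and E2f1 (-0.15, adjusted p = 0.025). Pcna also passed with the robust variance fit, centred arrays, dim probe sets left out or its probe sets averaged (adjusted p = 0.021 to 0.046), and Uhrf1 with centred arrays or dim probe sets left out (adjusted p = 0.031 and 0.034). Rfc4 passed with dim probe sets left out as well (adjusted p = 0.043). The count of lower genes was 5 without Sap-1 shRNA replicate 3 and 6 without Net shRNA replicate 1. Calls lost without 1 array were those of Chaf1a (8 of 9 fits, all but that without Net shRNA replicate 2), Pole (5: Net shRNA replicates 1 and 3, Sap-1 shRNA replicates 2 and 3, control replicate 2), Fen1 (4: Net shRNA replicates 2 and 3, Sap-1 shRNA replicates 1 and 3), Mcm4 and Mcm6 (2 each: Net shRNA replicate 1, Sap-1 shRNA replicate 3) and Pola1 (Sap-1 shRNA replicate 3). In these fits adjusted p ran from 0.05 to 0.17. Called under every setting at this threshold were 5 of the 15, namely Rfc3, Mcm7, Rpa2, Rrm1 and Slbp. Against control, 23 of 25 calls in Net shRNA cells and 23 of 28 in Sap-1 shRNA cells held under every such setting. The part of the neighbouring genes' shift in these differences was not tested.

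**Figure D3:**
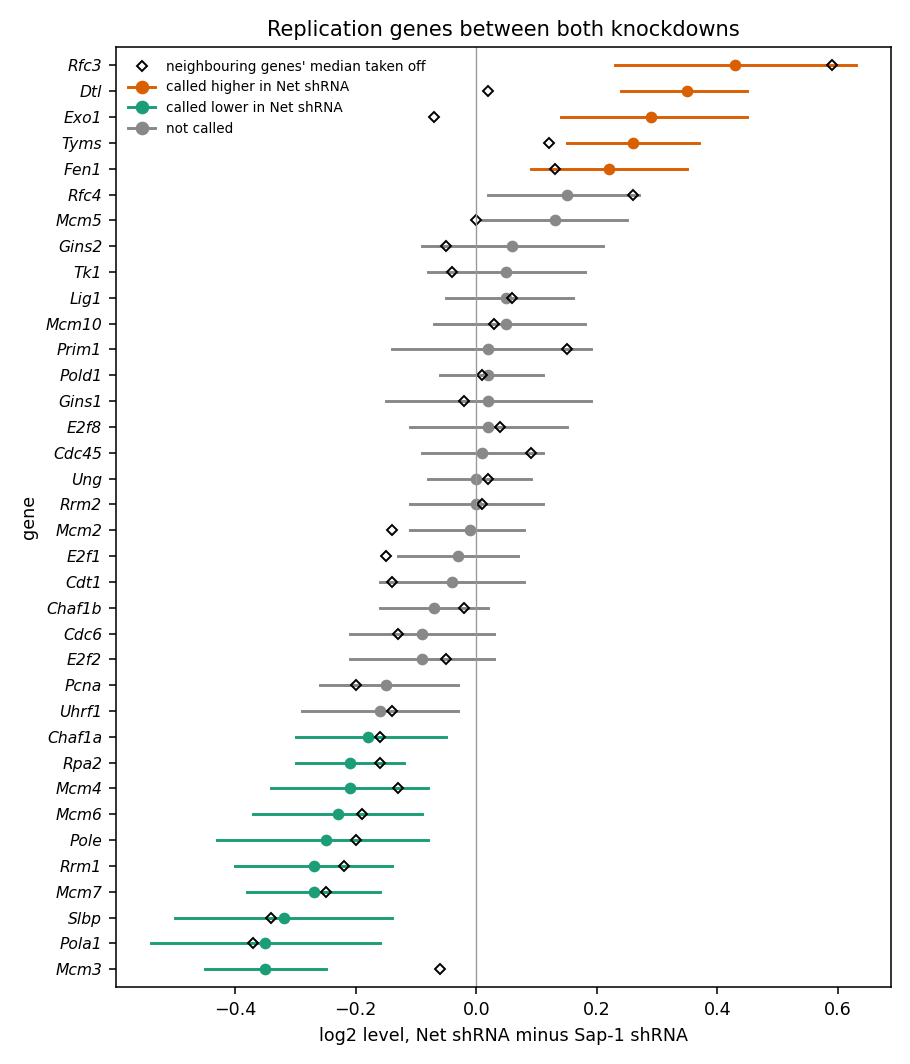
Difference in log2 level between Net shRNA and Sap-1 shRNA cells for each of the 36 genes (filled points, bars are 95% intervals of the limma fit), coloured by call, with the value after the neighbouring genes' median was taken off (open diamonds). For Mcm3, Dtl and Exo1 the diamonds lie near 0, while those of Rfc3, Mcm7, Rrm1 and Slbp stay away from 0.

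Other replication genes came from a list of 71, of which 68 were measured. The list also included regulators such as E2F and retinoblastoma genes and cyclins, and recombination genes. It too had more genes called higher than lower against control. In Net shRNA cells 33 rose (48.5%, against 13.4% of all genes), 33 were not called and 2 fell, with a median of 0.18. In Sap-1 shRNA cells 47 rose (69.1%, against 15.8% of all genes), 19 were not called and 2 fell, with a median of 0.31. In Net shRNA cells Gins4, another GINS subunit, rose by 0.77, Rb1, the retinoblastoma protein that restrains E2F, by 0.76, the histone chaperone Asf1b by 0.72 and the origin recognition subunit Orc6 by 0.56 (SE 0.05 to 0.06). Tfdp2, a dimer partner of E2F factors, fell by 0.38 and Mcm9, a helicase of recombination repair, by 0.18. Gins4, Rb1, Asf1b and Orc6 were also called higher in Sap-1 shRNA cells, by 0.44, 0.58, 0.37 and 0.42. In Sap-1 shRNA cells Ccne2, the S phase cyclin E2, rose by 1.13 (SE 0.09), Mtbp, needed for origin firing, by 0.89, Dut, which destroys dUTP, by 0.75 and the histone chaperone Nasp by 0.57. Ccne2, Mtbp, Dut and Nasp were also called higher in Net shRNA cells, by 0.70, 0.28, 0.21 and 0.43. E2f6, a repressor E2F, fell by 0.55 and E2f5 by 0.36 in Sap-1 shRNA cells. E2f6 was dim, at 6.95 in Net shRNA, 6.16 in Sap-1 shRNA and 6.71 in control cells, where the median level over all genes was 7.81.

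Between the lines 11 of the 68 other genes were higher (16.2%) and 20 lower (29.4%) in Net shRNA cells, with a median of -0.10. Of all genes 14.2% were higher and 13.3% lower, and of those at or above the median level 23.2% and 22.9%. The share of higher genes was thus near that of all genes. Higher were the dim E2f6 (0.79), E2f5 (0.42), Asf1b (0.35) and Gins4 (0.33). Lower were the recombination gene Brca2 (-0.76), Mtbp (-0.61), the origin recognition subunit Orc2 (-0.59) and Dut (-0.54), each at limma adjusted p = 7.1e-05 or less. Dut read 9.15, 9.14 and 9.15 in Net shRNA arrays and 9.67, 9.71 and 9.66 in Sap-1 shRNA arrays.

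Genes of G2 and mitosis were followed as a measure of cycling cells and differed in count between the lines. Of 19 measured, 15 rose (78.9%) and 0 fell by limma in Net shRNA cells (0 also at an unadjusted p under 0.05, median 0.29). In Sap-1 shRNA cells 8 rose (42.1%) and 2 fell (10.5%), with a median of 0.17. Of all genes 13.4% rose and 10.2% fell in Net, and 15.8% rose and 13.9% fell in Sap-1 shRNA cells. Among genes at or above the median level 23% rose and 17.7% fell in Net, and 26.9% rose and 22.3% fell in Sap-1 shRNA cells. Aurkb, a kinase of chromosome segregation, rose by 0.51 and 0.36, while Mki67, the common marker of cycling cells, passed in neither line (0.02 and 0.15, limma adjusted p = 0.91 and 0.19). Between the lines 9 of 19 were higher in Net shRNA cells (47.4%) and 0 lower by limma (1 at an unadjusted p under 0.05). Of all genes 14.2% were higher and 13.3% lower, and of those at or above the median level 23.2% and 22.9%. Among the 9 were the centrosomal kinase Nek2 (0.53) and the cyclin gene Ccnb2 (0.37). Against control Nek2 rose by 0.25 in Net and fell by 0.28 in Sap-1 shRNA cells, and Ccnb2 read 0.40 and 0.03. Cenpf, also among the 9, lay at -0.07 in Net and fell by 0.43 in Sap-1 shRNA cells. The part of cell cycle stage in these differences was not tested.

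**Figure D4:**
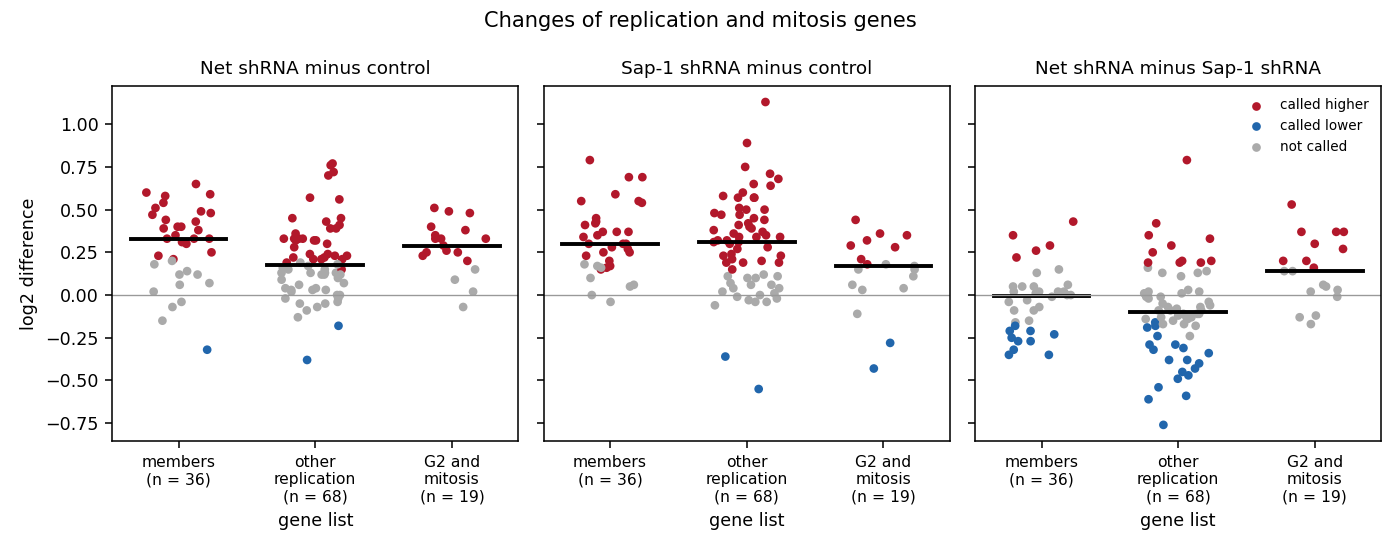
Log2 difference of each gene (1 point per gene, red called higher, blue called lower, grey not called, black bar the median) for the 36 replication genes, 68 other replication genes and 19 G2 and mitosis genes in the 3 comparisons. Both replication lists lie mostly above 0 against control, and between the lines the medians are -0.01, -0.10 and 0.14.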

How the data were processed

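The deposited values are log2 expression levels of probe sets, which according to the submitters' processing notes the authors obtained by RMA (Expression Console of Affymetrix); version, settings and genome build are not given in the sources used here. Probe sets were named from the platform annotation and symbols updated by Entrez ID (RefSeq table, GRCm38.p6). Of 28815 probe sets 21780 had 1 symbol, 1605 several and 5430 none, and 19935 genes were tested, each by its brightest probe set over 9 arrays. Differences were fitted with limma 3.58.1 in R 4.3.3 (lmFit, eBayes without trend) to the 9 arrays together, with a coefficient for each group, and Benjamini-Hochberg adjustment over all genes of a comparison. The fit was tested on simulated data. The members, gene lists and promoter words were chosen with earlier results of these data known. All 36 members were named, with up to 4 called genes per direction and comparison of the other replication genes; Aurkb, Mki67, Nek2, Ccnb2, Pdgfra, Tek and Lyz2 were chosen after their values were seen. Array values have no read depth, so the number of arrays limits precision, and p measures the spread between these replicates. Other settings were the replicate block, variance model, arrays fitted, normalization, a level filter, probe set averaging, the median of 50 neighbouring genes taken off, a threshold of 0.01 and each array left out.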

Additional observations from a re-analysis of the deposited data

How the results depend on the processing

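The counts of members called higher against control kept within 1.5 times under each setting, at 23 to 27 for Net and 25 to 30 for Sap-1 shRNA cells without 1 array. The median was 0.29 to 0.35 for Net and 0.27 to 0.32 for Sap-1 shRNA cells without 1 array, and 0.29 for Net with the neighbouring genes' median taken off. Members lower in Net shRNA cells than control numbered 0 to 1 without 1 array, 0 with the neighbours' median off and 0 at an adjusted p under 0.01. Between the lines, members higher in Net shRNA cells numbered 2 with the neighbours' median off and 4 to 6 without 1 array, and members lower numbered 4 at an adjusted p under 0.01 and 5 to 12 without 1 array. The median between the lines was -0.05 with the neighbours' median off, -0.04 with arrays centred on their median and -0.04 to 0.00 without 1 array. Exo1 between the lines turned to -0.07 with the neighbours' median off; the cause was not tested. With the replicate block the members called higher numbered 25 in Net and 29 in Sap-1 shRNA cells; E2f8 passed in both (adjusted p = 0.012 and 0.016), Exo1 passed in Sap-1 shRNA cells (0.041) and E2f2 no longer did (0.054). Replicates share a number, and no pairing is stated in the labels. Deviations of same-numbered arrays correlated at -0.11 to 0.36 and those of other pairs at -0.432 to 0.303. These ranges overlap and do not settle whether replicates were paired. Precision is limited by the number of arrays.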

Other observations

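The same promoter words were counted in tested genes outside the 36. Of 530 such genes with an E2F word in a window, 23.6% rose in Net and 27.5% in Sap-1 shRNA cells, against 13.3% and 15.6% of the 15051 genes without one. Of 2117 genes with the ETS word CCGGAAG, 24.4% rose in Net and 26.4% in Sap-1 shRNA cells, against 12% and 14.3% of those without it. Among all genes at or above the median level 23% and 26.9% rose, so the shares of word-bearing genes lay near those of bright genes, and level was not matched here. Medians stayed small, at 0.02 for genes with an E2F word in each line.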
